A study of Mus musculus with 6 samples.

Results

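The expression of 10 imprinted genes was followed across 3 mouse fibroblast lines: H19, Meg3, Mest, Peg3, Plagl1, Cdkn1c, Grb10, Dlk1, Ndn and Zdbf2. They were picked by name as a readout of how clonal lines differ in single-allele expression, and they are 10 of the 27179 genes with a row in the count tables. All 3 lines are mouse embryonic fibroblasts in which Cry1 and Cry2, Per1 and Per2, and Nr1d1 and Nr1d2 have been knocked out, a genotype called CPN-/-. The CPN-/- line carries nothing else, the CPN-/- CRY1 line carries an exogenous mouse Cry1, and the CPN-/- CRY2 line carries an exogenous mouse Cry2. The exogenous genes were delivered by virus and driven by a viral promoter, and each CRY line was grown from a single drug-resistant colony, so that the added CRY protein and the clone cannot be told apart. Each line has 2 poly(A)-selected mRNA libraries from separate RNA preparations, and p-values therefore measure the spread between preparations of 1 clone.

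Genomic imprinting marks a gene with DNA methylation in the egg or the sperm, and the mark is kept through cell division so that only the allele from 1 parent is transcribed. Imprinted genes lie in clusters under shared control regions, many act on fetal growth, and several fall silent or become biallelic when fibroblasts are kept in culture. The counts do not separate the parental alleles, and which allele was transcribed cannot be read from them.

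The libraries held 25957409 to 36106949 counts, and 0 counts in a library, taken as fewer than 3, allows a level of up to 0.0831 to 0.116 CPM (counts per 1000000 counts of the library). This limit and the marker sums use raw library totals, and all other CPM values use TMM-scaled totals. Of the 8 fibroblast markers, 7 had at least 979 counts in every library, while Thy1 had 1 to 7. Their summed level was 11200 to 17800 CPM, and the epithelial, endothelial and pluripotency marker sums each stayed under 1 CPM. The blood marker sum was 1.69 to 2.12 CPM and the skeletal muscle sum 0.72 to 2 CPM. The neural sum was 61.3 to 83.3 CPM in CPN-/- and 102 to 151 CPM in the CRY lines, where Map2 had 1582 to 4115 counts over all libraries, while Sox10 had at most 2 and Tubb3 at most 9. The 2 CPN-/- libraries differed more from each other than the pairs of the CRY lines did, with an SD of the log2 difference over genes of 0.44 against 0.23 in CPN-/- CRY1 and 0.24 for the CPN-/- CRY2 pair. In CPN-/- that difference followed transcript length, with Spearman's rho of 0.62 over 13246 genes that all share these 2 libraries and are no replicates. Cry1 was at 165 and 189.6 CPM in CPN-/- CRY1, 115 to 125 CPM in CPN-/- and 48.3 to 51.0 CPM in CPN-/- CRY2. Cry2 was at 349 and 351 CPM in CPN-/- CRY2, 129 to 136 CPM in CPN-/- and 50.7 to 51.7 CPM in CPN-/- CRY1. Each exogenous gene was thus highest in the line that carries it, but the counts do not separate its reads from those of the knocked-out locus, which gave over 100 CPM in CPN-/-.

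Of the 10 genes, 5 had enough counts to be tested: H19, Plagl1, Cdkn1c, Grb10 and Mest. The other 5, Meg3, Peg3, Dlk1, Ndn and Zdbf2, had at most 2 counts in every library. Each test was edgeR's two-sided quasi-likelihood test over all 6 libraries, with Benjamini-Hochberg adjustment over 14069 genes and a call at an adjusted p under 0.05. In CPN-/- CRY1 against CPN-/-, 1 of the 5 was called, and it was lower, where 24.3% of all tested genes were called (11.2% higher and 13.1% lower). In CPN-/- CRY2 against CPN-/-, 3 of the 5 were called, 2 higher and 1 lower, where the share of all tested genes was 6.66% (2.58% higher and 4.08% lower). In CPN-/- CRY1 against CPN-/- CRY2, 1 of the 5 was called, and it was lower, against 16.3% of all genes (7.72% higher and 8.57% lower), and in the test for any difference among the 3 lines 3 of the 5 were called, against 24.5%. The comparisons with CPN-/- share its libraries and are not independent of each other.

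**Figure D1:**
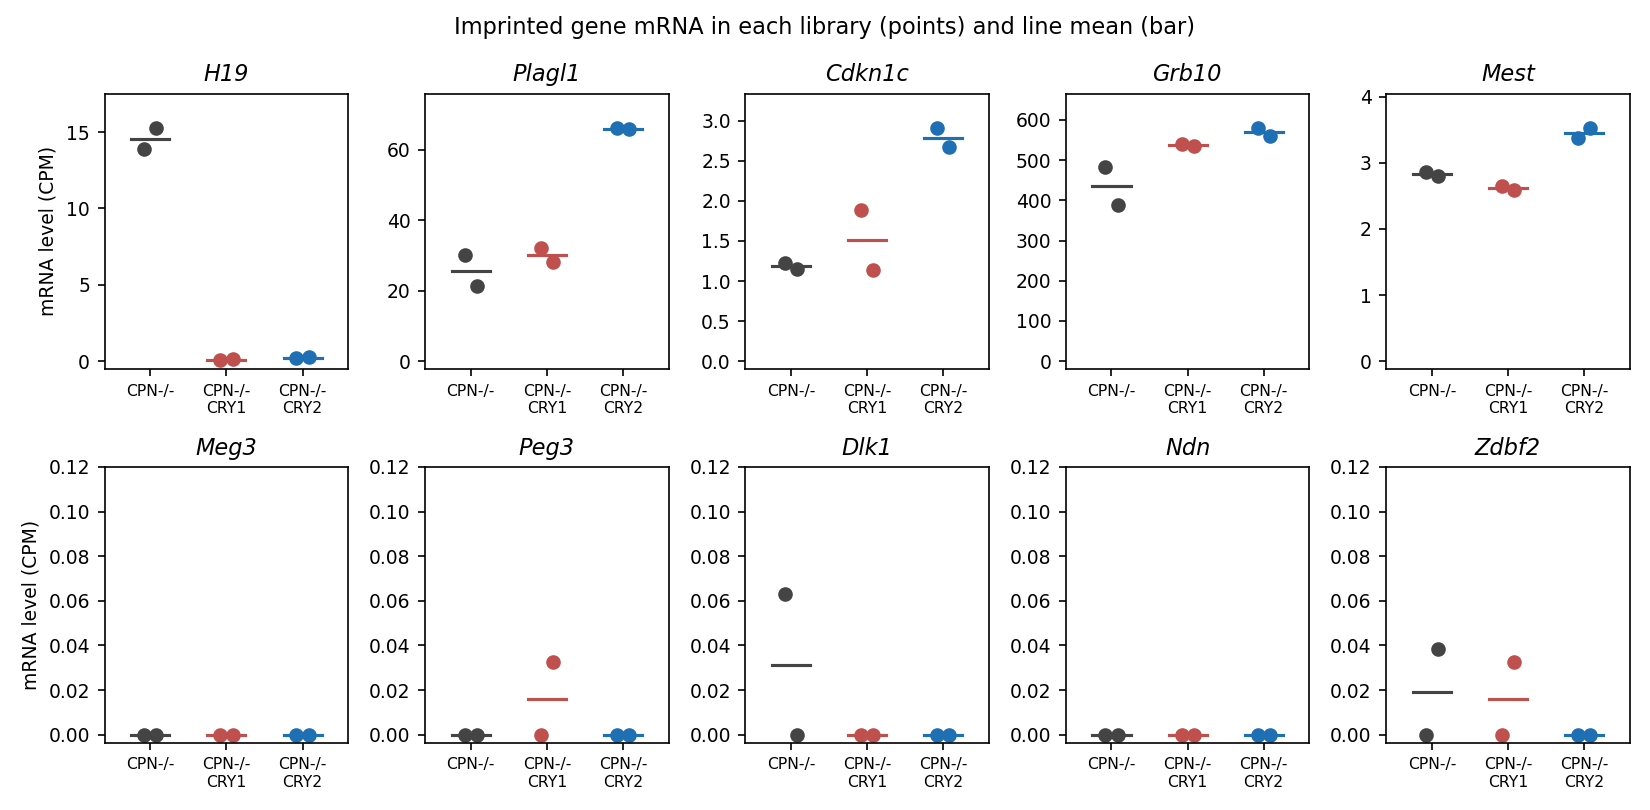
Level of each of the 10 imprinted genes in CPM in the 6 libraries, with 1 point for each library and a bar at the mean of each line. H19 stands at 13.9 and 15.2 CPM in CPN-/- and under 0.3 CPM in both CRY lines, Plagl1 and Cdkn1c are highest in CPN-/- CRY2, and 5 genes lie at or near 0 throughout.

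H19 is a long noncoding RNA transcribed from the maternal allele beside Igf2, and its first exon holds the precursor of the microRNA miR-675. The gene (ID 14955) lies on the minus strand at chr7:142575530-142578146 in GRCm38 (mm10), and its longest annotated transcript has 2286 bases. Both mature arms of miR-675 lie inside it, and their RefSeq sequences are given because they are the part of the transcript with a known product of its own; capitals mark the seed, bases 2 to 8. The 5p arm lies at chr7:142577112-142577133 and the 3p arm at chr7:142577078-142577099, both on the minus strand.
mmu-miR-675-5p: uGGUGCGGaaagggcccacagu
mmu-miR-675-3p: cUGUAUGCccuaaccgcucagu

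H19 had 442 and 397 counts in the CPN-/- libraries, 3 and 4 in CPN-/- CRY1, while CPN-/- CRY2 had 5 and 8. Both libraries of each CRY line were thus close to 0 and did not overlap with CPN-/-. The levels were 14.6 ± 0.948 CPM in CPN-/-, 0.106 ± 0.033 CPM in CPN-/- CRY1 and, for CPN-/- CRY2, 0.24 ± 0.0797 CPM (SD, n = 2 each). From the summed counts, H19 was 139-fold lower in CPN-/- CRY1, with a 95% interval of 67 to 346, and 60.5-fold lower in CPN-/- CRY2, with an interval of 35.2 to 114, both from the exact binomial distribution and covering counting error only. The fitted log2 fold changes were -7.06 (SE 0.26, edgeR adjusted p = 6.6e-05) and -5.90 (SE 0.24, edgeR adjusted p = 0.00016). Among the 14069 tested genes, 10 had a lower log2 fold change than H19 in CPN-/- CRY1, and 43 did so in CPN-/- CRY2.

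The call on H19 held in both comparisons under every alternative that kept the gene, including leaving out each library in turn, with a range of -7.38 to -6.76 for CPN-/- CRY1 and one of -6.27 to -5.59 for CPN-/- CRY2 on the log2 scale. Between the CRY lines the difference was -1.17 on the log2 scale (SE 0.50, 95% interval -2.35 to 0.02, edgeR adjusted p = 0.2), with 3 to 8 counts in each library. The row for Mir675 stood at 0 in all libraries, but these libraries were made from polyadenylated RNA and do not measure mature microRNA. Of the exon bases of H19, 3.41% are shared with Mir675 on the same strand and 5.73% with annotated genes on the opposite strand.

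Igf2, the growth factor gene that shares its enhancers with H19 and is transcribed from the paternal allele, had 107 and 50 counts in CPN-/-, 52 and 47 in CPN-/- CRY1, while CPN-/- CRY2 had 114 and 182. CPN-/- CRY2 held the highest counts, and 1 of the CPN-/- libraries lay close to CPN-/- CRY1 in counts. Against CPN-/- the log2 fold change was -0.85 (SE 0.35) in CPN-/- CRY1 and 1.03 (SE 0.32) in CPN-/- CRY2, both with an edgeR adjusted p of 0.12. Leaving out 1 library moved the first from -0.37 (without replicate 1 of CPN-/-) to -1.18 (without replicate 2). The second was 1.51 without replicate 1 of CPN-/-, 0.71 without replicate 2, and 0.66 without replicate 2 of CPN-/- CRY2. Igf2 was below CPN-/- CRY2 in the CPN-/- CRY1 line by a log2 value of -1.88 (SE 0.34, 95% interval -2.68 to -1.09, edgeR adjusted p = 0.012). That call was lost without replicate 1 (adjusted p = 0.11) or replicate 2 (0.1) of CPN-/- CRY1 and without replicate 2 of CPN-/- CRY2 (0.091). Of the exon bases of Igf2, 62.8% are also annotated to another gene model on the same strand, and how the authors' counting treated such reads is not given in the sources used here.

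Cdkn1c encodes the cyclin-dependent kinase inhibitor p57 and is transcribed from the maternal allele. It lies on the minus strand of the same chromosome as H19 (ID 12577, chr7:143458339-143461059). It had 39 and 30 counts in CPN-/-, 68 and 35 in CPN-/- CRY1, while CPN-/- CRY2 had 79 and 72. The levels were 1.19 ± 0.0529, 1.51 ± 0.528 and 2.79 ± 0.166 CPM (SD, n = 2 each), so that CPN-/- CRY2 lay above both other lines and the 2 CPN-/- CRY1 libraries were on either side of the CPN-/- pair.

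Cdkn1c rose 2.33-fold in CPN-/- CRY2 against CPN-/-, a log2 fold change of 1.22 (SE 0.27, 95% interval 0.58 to 1.86, edgeR adjusted p = 0.045). This call was close to the threshold and was lost without replicate 1 (1.17) or replicate 2 (1.29) of CPN-/- CRY2. In CPN-/- CRY1 the log2 fold change was 0.35 (SE 0.28, 95% interval -0.31 to 1.02, edgeR adjusted p = 0.37). Between the CRY lines it was -0.87 (SE 0.25, 95% interval -1.47 to -0.27, edgeR adjusted p = 0.062). That difference was -0.86 without replicate 1 or replicate 2 of CPN-/-, and ran from -1.29 without replicate 1 of CPN-/- CRY1 to -0.56 without replicate 2. An opposite-strand gene model covers 30.7% of the exon bases of Cdkn1c, and the strand setting of the counting is not given in the sources used here.

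Grb10 encodes an adaptor that restrains signalling from the insulin and IGF1 receptors, and in most tissues outside the brain it is transcribed from the maternal allele (ID 14783, minus strand, chr11:11930499-12037428). It was the most abundant of the 10 genes, at 86.1, 106 and 113 CPM per kb of transcript in CPN-/-, CPN-/- CRY1 and CPN-/- CRY2. The libraries stood at 483 and 388 CPM in CPN-/-, 540 and 536 CPM in CPN-/- CRY1, while CPN-/- CRY2 stood at 579 and 560 CPM. Each of the 4 CRY libraries exceeded both of the CPN-/- pair.

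The log2 fold change of Grb10 was 0.30 (SE 0.13, 95% interval 0.01 to 0.60, edgeR adjusted p = 0.12) in CPN-/- CRY1 and 0.39 (SE 0.13, 95% interval 0.09 to 0.69, edgeR adjusted p = 0.13) in CPN-/- CRY2. Neither passed the threshold. Both did so with the trend over transcript length removed (0.23, adjusted p = 0.03, and 0.31, adjusted p = 0.018) and without replicate 1 of CPN-/-, where they were 0.47 and 0.55. Without replicate 2 of CPN-/- they were 0.16 (adjusted p = 0.064) and 0.24 (0.011, called), and the adjusted p ran from 4e-07 to 0.37 and from 2.7e-08 to 0.55 over the 17 alternatives. Between the CRY lines the log2 fold change was -0.08 (SE 0.13, 95% interval -0.38 to 0.22, edgeR adjusted p = 0.72).

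Plagl1 encodes a zinc finger transcription factor, also called Zac1, that arrests the cell cycle and acts on other imprinted genes, and it is transcribed from the paternal allele (ID 22634, plus strand, chr10:13090832-13131694). The libraries stood at 30.02 and 21.3 CPM in CPN-/-, 32.1 and 28.1 CPM in CPN-/- CRY1, while CPN-/- CRY2 stood at 65.99 and 65.9 CPM. Both CPN-/- CRY2 libraries lay above all others, and the ranges of CPN-/- and CPN-/- CRY1 overlapped. Plagl1 rose 2.56-fold in CPN-/- CRY2 against CPN-/-, a log2 fold change of 1.36 (SE 0.17, 95% interval 0.96 to 1.76, edgeR adjusted p = 0.0054), and 1.05% of the tested genes had a higher log2 fold change.

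In CPN-/- CRY1 the log2 fold change of Plagl1 was 0.23 (SE 0.17, 95% interval -0.17 to 0.62, edgeR adjusted p = 0.34). The direct comparison put CPN-/- CRY1 below CPN-/- CRY2 by a log2 value of -1.13 (SE 0.17, 95% interval -1.53 to -0.74, edgeR adjusted p = 0.0064). The CPN-/- CRY2 call was lost without replicate 1 (1.36, adjusted p = 0.057) or replicate 2 (1.37, 0.055) of that line, with hardly any change in the fold. The direct call was lost without any 1 of the 4 CRY libraries, at log2 fold changes of -1.23 to -1.04 and adjusted p of 0.058 to 0.086. The value for CPN-/- CRY1 rested on which CPN-/- library was kept, since it was 0.50 without replicate 1 of CPN-/- and 0.01 without replicate 2. The CPN-/- pair differed by 0.49 on the log2 scale for this gene, and with the length trend removed the CPN-/- CRY2 log2 fold change was 1.28 (adjusted p = 6.8e-05).

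**Figure D2:**
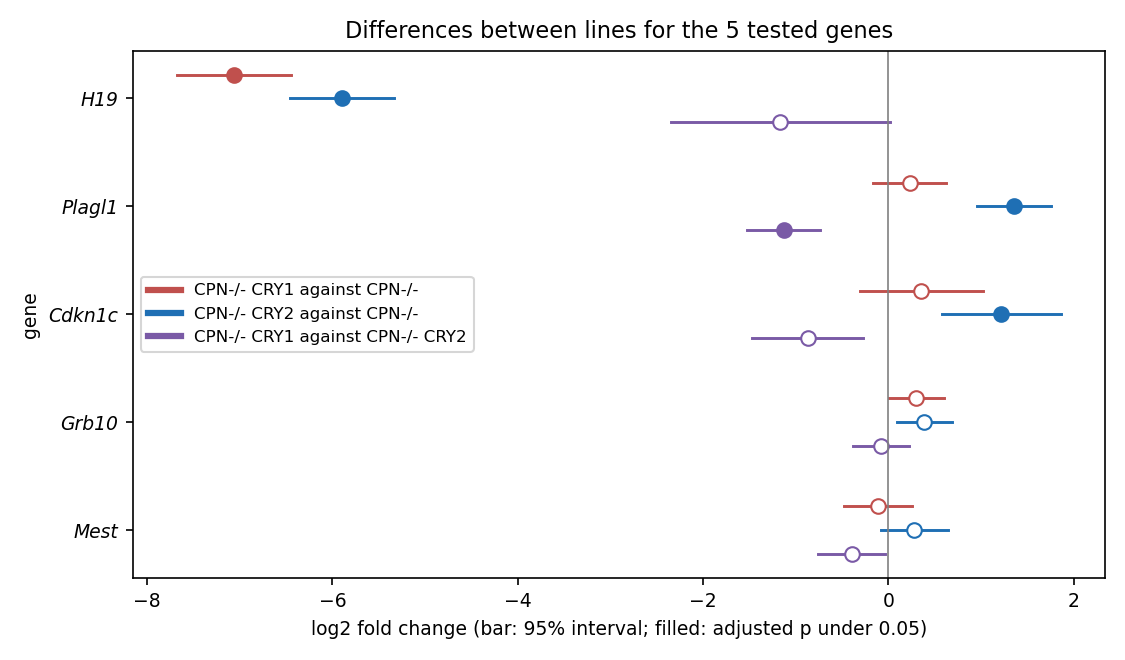
Log2 fold change of the 5 tested imprinted genes in the 3 comparisons, with 95% intervals from the edgeR fit and filled symbols for an adjusted p under 0.05. H19 lies at -7.06 and -5.90 against CPN-/-, Plagl1 at 1.36 and Cdkn1c at 1.22 in CPN-/- CRY2, and the values of Grb10 and Mest are under 0.4 in size and open in every comparison.

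CLOCK-BMAL1, the activator that CRY proteins inhibit, binds the E-box CACGTG, a motif that reads the same on both strands. The letters were searched in windows from 250 bases before to 50 after each start in the RefSeq promoter table for GRCm38.p6, which held 13 windows for 8 of the 10 genes and none for H19 and Cdkn1c. The motif was in 1 of the 13 windows, and 7.15% of all 32851 windows hold it. That window is the one of Plagl1, where the motif begins 182 bases before the start at chr10:13090650-13090655. A match is a description of the letters and not of binding. The 250 bases before the start of Plagl1, chr10:13090582-13090831 on the plus strand, are given with the motif in capitals because Plagl1 is the 1 gene among the 8 with it.
Plagl1 upstream: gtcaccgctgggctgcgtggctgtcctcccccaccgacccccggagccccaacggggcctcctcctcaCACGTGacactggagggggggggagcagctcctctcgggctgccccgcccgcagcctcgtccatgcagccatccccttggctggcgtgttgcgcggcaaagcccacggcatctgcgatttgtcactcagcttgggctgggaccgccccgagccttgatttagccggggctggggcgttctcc
The Plagl1 window held 26 CpG pairs, with an observed-to-expected ratio of 0.70. Over the 13 windows the median was 13 pairs and a ratio of 0.60, against 7 pairs and 0.38 over all windows. The windows of the silent genes ranged from 1 to 38 pairs, and those of the expressed genes Grb10, Mest and Plagl1 from 8 to 45.

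Mest encodes a protein of the alpha/beta hydrolase fold and is transcribed from the paternal allele (ID 17294, plus strand, chr6:30733506-30748466). It stood at 2.86 and 2.8 CPM in CPN-/-, 2.66 and 2.59 CPM in CPN-/- CRY1, while CPN-/- CRY2 stood at 3.38 and 3.52 CPM. The 3 pairs did not overlap, but their differences were small. The log2 fold change was -0.11 (SE 0.16, 95% interval -0.48 to 0.26, edgeR adjusted p = 0.62) in CPN-/- CRY1, 0.28 (SE 0.15, 95% interval -0.08 to 0.65, edgeR adjusted p = 0.29) in CPN-/- CRY2, and -0.39 (SE 0.15, 95% interval -0.76 to -0.03, edgeR adjusted p = 0.13) between the CRY lines. No alternative called Mest in any comparison. Copg2, a neighbour on the opposite strand, covers 23.1% of its exon bases.

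The 5 genes that were not tested had almost no counts in any line. Meg3, a maternally transcribed long noncoding RNA, and Ndn, which encodes a MAGE family protein, were at 0 in all 6 libraries. Peg3, a zinc finger gene, had 1 count in 1 CPN-/- CRY1 library. Dlk1, which encodes a transmembrane ligand related to the Notch ligands and shares a cluster with Meg3, had 2 counts in 1 CPN-/- library. Zdbf2 had 1 count in a library of CPN-/- and 1 in a library of CPN-/- CRY1. No difference between the lines was detectable in these genes at this depth, and in Ndn and Meg3 the libraries allow levels of up to 0.0831 to 0.116 CPM by raw totals. Genes with at most 2 counts in every library made up 38.5% of all genes in the tables and 32.4% of those annotated as protein-coding.

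A wider list of 48 genes, listed as imprinted, placed the 10 in context. The counts do not show whether each of them is imprinted in these fibroblasts. Of the 48, 24 were tested, 20 had at most 2 counts in every library (41.7%) and 11 were at 0 in every library. Those at 0 included Snrpn, Snurf, Magel2 and Mkrn3, which share the cluster of Ndn, and Usp29 and Zim1, which share that of Peg3. Gene models on the same strand, Snurf among them, cover 27.3% of the exon bases of Snrpn. How the authors' counting treated such reads is not given in the sources used here. The 0 counts of Snrpn and Snurf need not mean silence. Rtl1, Rian and Dio3, in the cluster of Dlk1 and Meg3, had at most 2 counts in every library, whereas Mirg in that cluster had 9 to 20. Kcnq1ot1, the noncoding RNA whose promoter lies in the control region of the Cdkn1c cluster, had 1 count in 1 CPN-/- CRY2 library. Igf2r, which encodes the receptor that clears IGF2, had 4230 and 1835 counts in CPN-/-, 4938 and 4084 in CPN-/- CRY1, while CPN-/- CRY2 had 3704 and 3476, and its log2 fold changes of 0.40 and 0.38 were not called (edgeR adjusted p = 0.28 and 0.39). Both rested on the CPN-/- pair, since they were 0.93 and 0.91 and called without replicate 1 of CPN-/- (adjusted p = 4.1e-14 and 1.9e-13), and 0.02 and 0.00 without replicate 2 (0.8 and 0.99).

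Against CPN-/-, 3 of the 24 tested genes of the wider list were called in CPN-/- CRY1 (2 higher, 1 lower) and 2, both higher, in the CPN-/- CRY2 line, with medians of -0.01 and 0.25 on the log2 scale beside -0.01 in both over all tested genes. Those are 12.5% and 8.33% of the list, where 24.3% and 6.66% of all tested genes were called. Between the CRY lines 6 were called (25%, beside 16.3% of all tested genes). All 6 were lower in CPN-/- CRY1, a direction in which 8.57% of all genes were called. The median of the 24 in that comparison was -0.02, beside -0.00 over all genes. The 6 genes were Dcn, Igf2, Peg10, Peg13, Sgce and Slc22a18.

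Peg10, a paternally transcribed gene derived from a retrotransposon, was at 16.1 and 9.98 CPM in CPN-/-, 16.4 and 18.5 CPM in CPN-/- CRY1, while CPN-/- CRY2 stood at 42.5 and 40.7 CPM. As for Plagl1, both CPN-/- CRY2 libraries lay above all others. The log2 fold change was 1.67 (SE 0.21, edgeR adjusted p = 0.0061) in CPN-/- CRY2 and -1.26 between the CRY lines (edgeR adjusted p = 0.0097). The first call was lost without replicate 1 (adjusted p = 0.059) or replicate 2 (0.052) of CPN-/- CRY2, and the second without any 1 of the 4 CRY libraries (-1.34 to -1.17, adjusted p of 0.071 to 0.11). Sgce, which encodes a sarcoglycan and is paired head to head with Peg10, had a log2 fold change of -0.50 between the CRY lines (SE 0.11, edgeR adjusted p = 0.024) and 0.26 in CPN-/- CRY2, which was not called. Its call too was lost without any 1 of the 4 CRY libraries (adjusted p of 0.14 to 0.22).

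Peg13, a noncoding RNA of the paternal allele, had 309 and 203 counts in CPN-/-, 248 and 194 in CPN-/- CRY1, while CPN-/- CRY2 had 406 and 345, and it was below CPN-/- CRY2 in the CPN-/- CRY1 line by a log2 value of -1.07 (SE 0.16, edgeR adjusted p = 0.0064). Osbpl5, which encodes a lipid transfer protein, rose in CPN-/- CRY1 against CPN-/- by 0.70 (SE 0.10, edgeR adjusted p = 0.0049), and Inpp5f, which encodes an inositol phosphatase, rose by 0.40 (SE 0.09, edgeR adjusted p = 0.021). The 2 remaining called genes had a mean under 50 counts and are named because their calls fall in the counts above, after their values were seen. Dcn, which encodes the matrix proteoglycan decorin, had 23 and 24 counts in CPN-/-, 6 and 1 in CPN-/- CRY1, while CPN-/- CRY2 had 61 and 59, with log2 fold changes of -2.92 (SE 0.50, edgeR adjusted p = 0.009) and 1.44 (SE 0.30, edgeR adjusted p = 0.039) against CPN-/-. Slc22a18, a transporter gene in the Cdkn1c cluster, was below CPN-/- CRY2 in the CPN-/- CRY1 line by a log2 value of -1.95 (SE 0.39, edgeR adjusted p = 0.019), with at most 35 counts in a library. Leaving out 1 CRY library lost the calls on Inpp5f (any of the 4, adjusted p of 0.079 to 0.19), Slc22a18 (any of the 4, 0.083 to 0.15), Peg13 (either of CPN-/- CRY1 or replicate 1 of CPN-/- CRY2, 0.067 to 0.084) and Osbpl5 (either of CPN-/- CRY1, 0.065 to 0.067). Dcn was lower in CPN-/- CRY1 than its level in CPN-/- CRY2 by a log2 value of -4.36 (SE 0.43, edgeR adjusted p = 0.0013) and kept that call without each library, from -5.91 to -3.70, whereas its call in CPN-/- CRY2 against CPN-/- was lost without replicate 1 or 2 of CPN-/- CRY2 (0.23 to 0.25), and that in CPN-/- CRY1 without replicate 2 of that line (0.055).

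**Figure D3:**
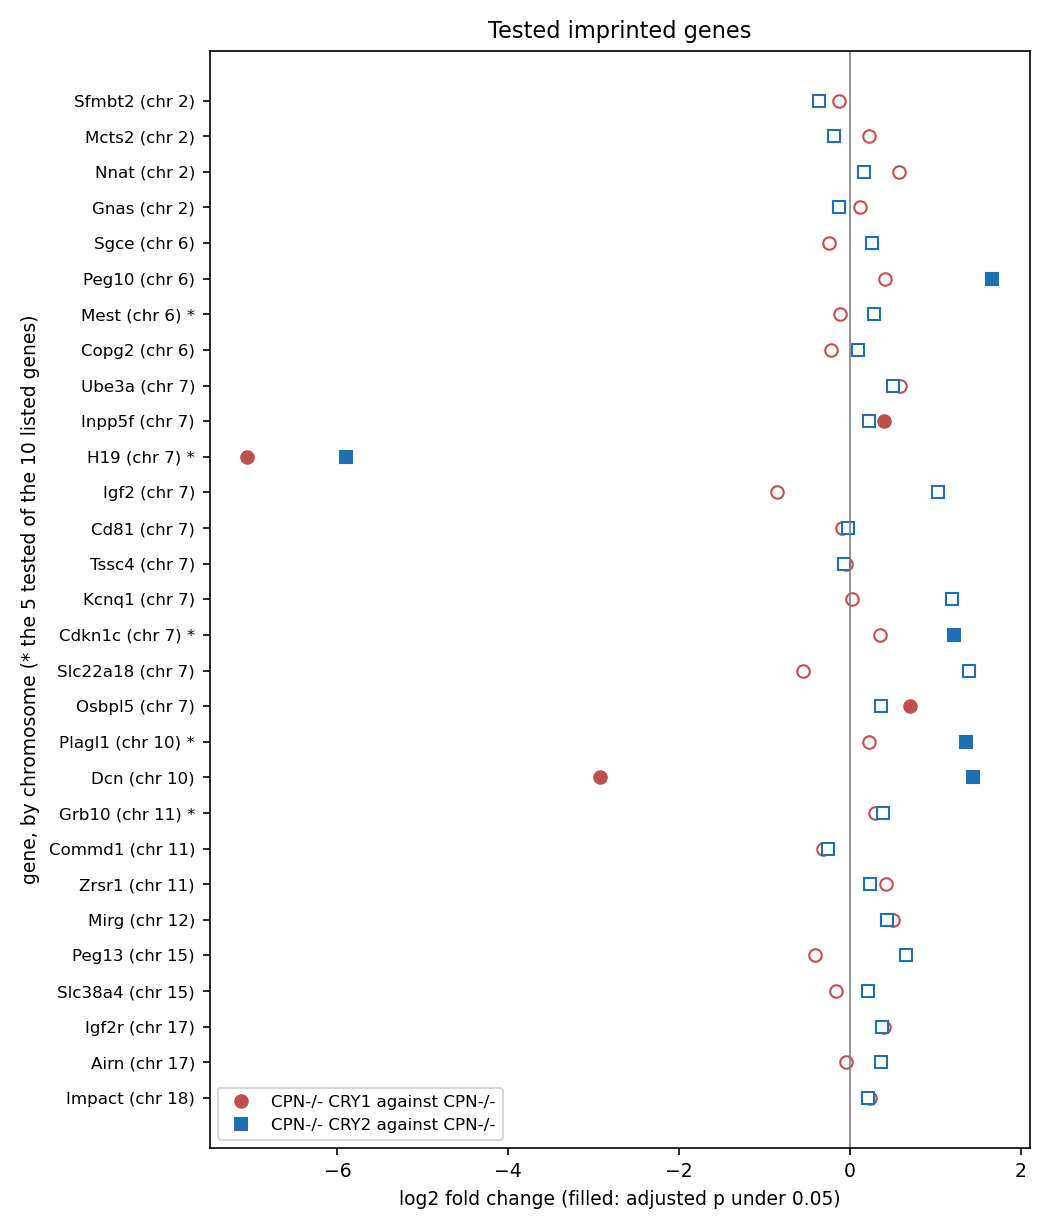
Log2 fold change against CPN-/- of the tested imprinted genes by chromosome, with circles for CPN-/- CRY1, squares for CPN-/- CRY2 and an asterisk at the 5 tested of the 10 genes. H19 is far below 0 in both lines, Dcn is at -2.92 in CPN-/- CRY1, and Peg10, Plagl1 and Cdkn1c are above 1 in CPN-/- CRY2 with CPN-/- CRY1 nearer 0.

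The proteins that set or keep imprints were counted from a list of 21 genes, of which 18 were tested, and Dnmt3l, Dppa3 and Ctcfl were not. In CPN-/- CRY1 against CPN-/-, 4 were called (22.2%, beside 24.3% of all tested genes), 3 higher and 1 lower. In CPN-/- CRY2 against CPN-/- edgeR called 0, where it called 6.66% of all genes, with 2 at an unadjusted p under 0.05. DESeq2 called 2, and its share over all genes is not given here. Between the CRY lines 3 were called (16.7%, beside 16.3%), 2 higher in CPN-/- CRY1 and 1 lower. The medians of the list were 0.11, 0.10 and 0.01 on the log2 scale.

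Zfp57, a zinc finger protein that holds methylation at imprinted control regions, had 656 and 467 counts in CPN-/-, 1020 and 860 in CPN-/- CRY1, while CPN-/- CRY2 had 459 and 419. It was highest in CPN-/- CRY1, with a log2 fold change of 0.54 against CPN-/- (SE 0.11, edgeR adjusted p = 0.017) and 0.79 against CPN-/- CRY2 (SE 0.12, edgeR adjusted p = 0.006). Setdb1, a histone H3 lysine methyltransferase, fell in CPN-/- CRY1, with a log2 fold change of -0.50 (SE 0.11, edgeR adjusted p = 0.02). Hells, a chromatin remodeller needed for DNA methylation, rose by 0.47 (SE 0.12, edgeR adjusted p = 0.034), and the zinc finger factor Yy1 by 0.39 (SE 0.11, edgeR adjusted p = 0.044). Dnmt1, the methyltransferase that copies methylation at replication, had log2 fold changes of 0.12 and 0.09 in the 2 comparisons with CPN-/- (edgeR adjusted p = 0.59 and 0.74). Without any 1 of the 4 CRY libraries the calls in CPN-/- CRY1 against CPN-/- were lost for Zfp57 (adjusted p of 0.052 to 0.13), Setdb1 (0.068 to 0.16), Hells (0.08 to 0.24) and Yy1 (0.11 to 0.28), and that of Zfp57 between the CRY lines likewise (0.06 to 0.091), each with the direction kept. Whether the level of any of these genes has a part in the values of the 10 was not tested.

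The genes that start within 500 kb of the start of each of the 10 were read for a shared movement. The 10 genes and those of the wider imprinted list were left out of these neighbours. Igf2 near H19, Copg2 near Mest, and Slc22a18 and Osbpl5 near Cdkn1c are thus not in the counts and medians below. Around H19, 12 of 25 neighbours were tested, with a median log2 fold change of -0.05 in CPN-/- CRY1, ranging from -1.24 to 0.76, and 0.30 in CPN-/- CRY2, ranging from -1.29 to 2.41. None of these neighbours fell by as much as H19. In CPN-/- CRY1 2 of the 12 were called, Dusp8 at 0.76 (edgeR adjusted p = 0.0029) and Tspan32 at -1.24 (edgeR adjusted p = 0.049). There 24.3% of all tested genes were called. In CPN-/- CRY2 1 was called, Trpm5 at 2.41 (edgeR adjusted p = 0.043), beside 6.66% of all tested genes. Trpm5 had 13 and 18 counts in CPN-/- CRY2 and 2 to 4 elsewhere, so it passed the count filter only through that line. Tspan32, Trpm5 and Mrpl23 have under 100 counts on average and are named after their values were seen. Mrpl23, whose start is 43.1 kb from that of H19, had 58 and 75 counts in CPN-/-, 67 and 48 in CPN-/- CRY1, while CPN-/- CRY2 had 71 and 85. Its log2 fold changes of -0.44 and 0.31 were not called. The calls on Trpm5 and Tspan32 were lost without any 1 of the 4 CRY libraries (adjusted p of 0.11 to 0.3 and 0.099 to 0.24), that on Tspan32 also without replicate 2 of CPN-/-, and that on Dusp8 without replicate 2 of CPN-/- CRY1 (0.051).

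Around Plagl1, 8 of 9 neighbours were tested, and in CPN-/- CRY2, where Plagl1 rose, their median was -0.03. Fuca2 was the 1 neighbour called in CPN-/- CRY1, at 1.19 (edgeR adjusted p = 0.0008), where 24.3% of all tested genes were called. The log2 fold change of Fuca2 in CPN-/- CRY2 was -0.01. Around Cdkn1c, in a window that overlaps that of H19, 10 of 13 neighbours were tested, with medians of -0.03 in CPN-/- CRY1 and 0.04 in CPN-/- CRY2. In CPN-/- CRY1 4 were called, beside 24.3% of all tested genes, and in CPN-/- CRY2 1 was, Trpm5, beside 6.66%. Tnfrsf22 and Tnfrsf23 rose in CPN-/- CRY1 by 1.29 (edgeR adjusted p = 0.011) and 0.80 (edgeR adjusted p = 0.018). Dhcr7 also rose there (0.60, edgeR adjusted p = 0.037), and Tspan32 was lower (-1.24). Around Mest, 6 of 14 were tested and 1, Zc3hc1, was called, at -0.66 in CPN-/- CRY1 (edgeR adjusted p = 0.017), again beside 24.3%. Fuca2 kept its call without each library, those on Tnfrsf22 and Tnfrsf23 were lost without either CPN-/- CRY1 library (adjusted p of 0.07 to 0.086 and 0.093 to 0.14), and that on Zc3hc1 without any 1 of the 4 CRY libraries (0.053 to 0.16).

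The silent genes lay in unlike surroundings. With the listed imprinted genes left out, none of the 66 neighbours of Dlk1, 65 of Meg3 and 5 of Ndn were tested. The windows of Dlk1 and Meg3 overlap. Mirg, a gene of the wider list that starts inside both, had 9 to 20 counts and was tested. Its log2 fold changes of 0.51 in CPN-/- CRY1 and 0.44 in CPN-/- CRY2 were not called (edgeR adjusted p = 0.4 and 0.56). By contrast, 8 of 11 neighbours of Zdbf2 and 6 of 23 of Peg3 had enough counts to be tested. Among the neighbours of Zdbf2, Adam23 was at 0.70 in CPN-/- CRY1 (edgeR adjusted p = 0.011) and -1.60 in CPN-/- CRY2 (edgeR adjusted p = 0.0016), and the first of these was lost without either CPN-/- CRY1 library (0.093 to 0.1). The medians over all tested genes of chromosomes 1, 6, 7, 10, 11 and 12 lay between -0.13 and 0.11 in both comparisons with CPN-/-.

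**Figure D4:**
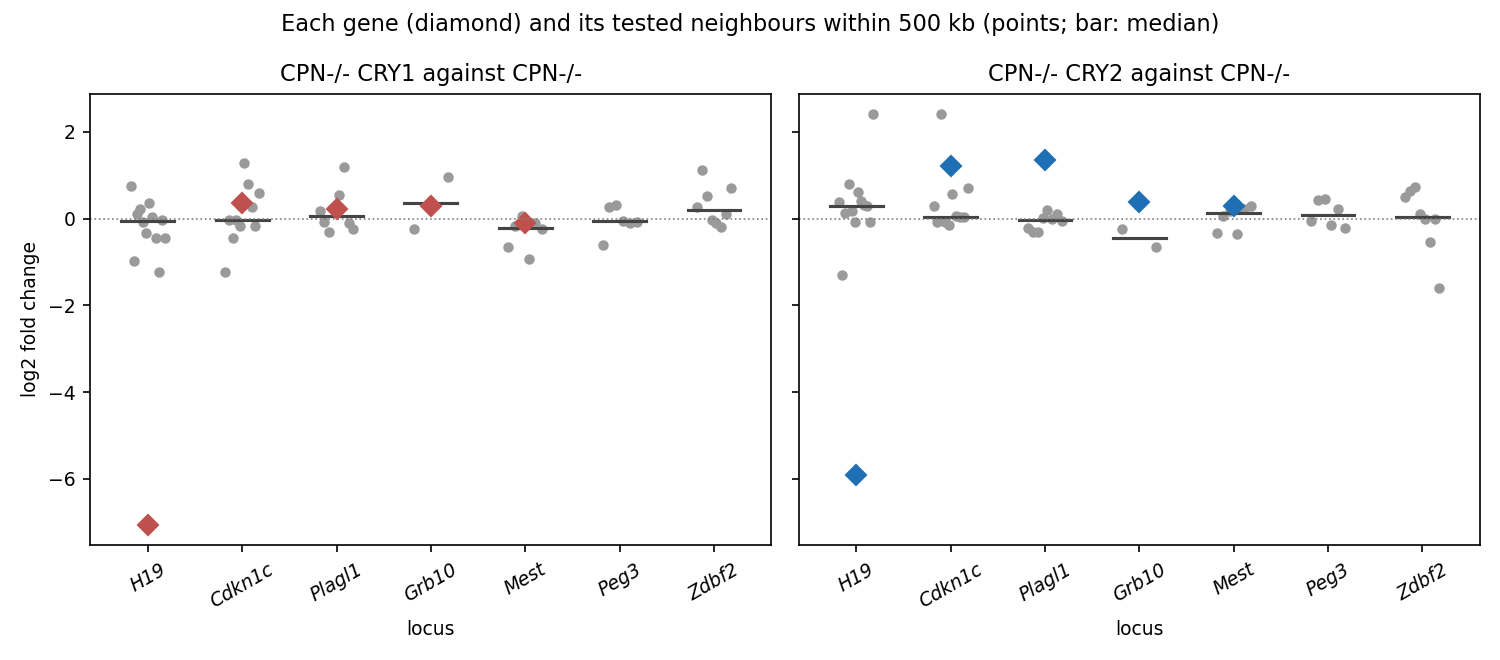
Log2 fold change against CPN-/- of the tested genes within 500 kb of the imprinted genes, other listed imprinted genes left out. Each neighbour has 1 point, a bar marks their median and a diamond the imprinted gene itself where it was tested. The H19 diamond lies below all of its 12 neighbours in both panels, and the Plagl1 diamond in CPN-/- CRY2 lies apart from neighbours whose median is -0.03.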

How the data were processed

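The authors isolated RNA with Trizol from subconfluent cells, made stranded poly(A) libraries, mapped paired reads to mm10 (STAR) and assigned them to genes (featureCounts). The gene annotation and strand setting are not given in the sources used here. The deposited files hold raw counts, without normalization, for 27179 NCBI gene IDs in 6 libraries (2 for each of 3 lines).

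The 10 genes and all lists were chosen with earlier results of these data known. Symbols were matched to gene IDs, and positions and lengths came from RefSeq and GENCODE tables for GRCm38. Genes passing filterByExpr (minimum count 10, minimum total 15) were fitted with edgeR 4.0.16 in R 4.3.3, with TMM scaling, the line as the only term, quasi-likelihood tests and adjusted p under 0.05. CPM uses TMM-scaled totals, except for marker sums and the limit set by 0 counts. The SE was the size of the estimate over the root of its F value. Alternatives were DESeq2 1.42.0, other filters and thresholds, 4-library fits, a replicate block, removal of a loess trend over transcript length, and leaving out each library. The code was tested on simulated data. The 25957409 to 36106949 counts for each library set the counting precision.

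Values are named for all 10 genes. Of the wider list, Igf2, Igf2r and Kcnq1ot1 are named, and with them those called with 50 or more counts on average; called maintenance genes follow the same rule (at most 6), and called neighbours need 100 on average. Others were named after their values were seen.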

Additional observations from a re-analysis of the deposited data

Results flagged for a closer look

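Plagl1 responded differently in the 2 CRY lines, with CPN-/- CRY1 below CPN-/- CRY2 by a log2 value of -1.13 (edgeR adjusted p = 0.0064 in the direct comparison, which is the test of the difference). The call was lost without any 1 of the 4 CRY libraries, with adjusted p of 0.058 to 0.086, and all 4 kept the direction. Each line is 1 clone, and the clone and the CRY protein cannot be told apart.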

How the results depend on the processing

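With every library required to have 10 counts, 0 of the 10 genes passed in CPN-/- CRY1 and 1 in the CPN-/- CRY2 line, since H19 is then not tested and Cdkn1c missed the threshold (adjusted p = 0.057). With the trend over transcript length removed, 2 were called in CPN-/- CRY1 and 2 between the CRY lines. Between the CRY lines 2 were also called with no filter, in a 4-library fit and with the replicate block, which added Cdkn1c (-0.89, adjusted p = 0.044). Replicate numbers did not pair the samples (correlations of -0.08, 0.14 and -0.03). In the wider list, the length trend gave 9, 7 and 10 calls in the comparisons of CPN-/- CRY1, of CPN-/- CRY2 and between the CRY lines, a threshold of 0.01 gave 1 in CPN-/- CRY2 and 3 between the CRY lines, the 4-library fit 14 between the CRY lines, and a fold of at least 1 on the log2 scale 1 in CPN-/- CRY1. For CPN-/- CRY2 the 10-count filter gave 1 and no filter 4. Of the maintenance genes, the threshold of 0.01, the fold limit and the 4-library fit left 0 in CPN-/- CRY1 and gave 1, 0 and 8 between the CRY lines, where the length trend gave 5, and DESeq2 and no filter each called 2 in CPN-/- CRY2. Leaving out each library gave 1 to 3, 1 to 4 and 0 to 2 of the 10 genes in the 3 comparisons and 2 to 4 for any difference, 0 to 14, 0 to 15 and 1 to 13 of the wider list, and 0 to 13, 0 to 13 and 0 to 8 of the maintenance genes. A line left with 1 library was taken to vary like the others. Signs turned for Mest in CPN-/- CRY1 (0.00 with the length trend removed) and Setdb1 in CPN-/- CRY2 (-0.01), and over left-out libraries for Cdkn1c in CPN-/- CRY1 (-0.07 to 0.66), Igf2r between the CRY lines (-0.02 to 0.06), Setdb1 (-0.01 to 0.24) and Hells (-0.12 to 0.12) in CPN-/- CRY2. None of these was called in that comparison in the main fit. Of 251 values of the 5 tested genes under alternatives, 227 kept their direction and call, 10 lost the call, 12 gained it and 2 turned. For results not called in the main fit, the threshold of 0.01 and the fold limit could only return the same call. That tally is therefore no measure of stability. The causes were not tested. Genes under about 0.1 CPM cannot be compared at this depth.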
